A study of Arabidopsis thaliana with 4 samples.

Results

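The FLC clade of *Arabidopsis thaliana* comprises FLOWERING LOCUS C (FLC, AT5G10140) and its close relatives MADS AFFECTING FLOWERING 1 to 5 (MAF1, AT1G77080; MAF2, AT5G65050; MAF3, AT5G65060; MAF4, AT5G65070; MAF5, AT5G65080). Members were chosen by gene identifier, and 3 of the 6, FLC, MAF4 and MAF5, were among the 1984 genes of the deposited seedling table. MAF1, MAF2 and MAF3 were not analysed here. All 3 listed genes were upregulated in the *ndx1-4* mutant, FLC by 2.58-fold, MAF5 by 13.9-fold and MAF4 by 15.1-fold as ratios of mean FPKM (n = 2 libraries per genotype). Of all listed genes, 98.9% passed the same test, with 43.0% of listed genes higher and 55.9% lower in the mutant, so the calls themselves say little and the sizes of the changes are described here.

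Libraries came from 10-day-old seedlings of the Col-0 wild-type accession and of *ndx1-4*, a line in the Col-0 background with a T-DNA insertion (WiscDsLox344A04) in NODULIN HOMEOBOX (NDX). This insertion line alone stands for loss of NDX. The sources used here do not say whether the libraries of a genotype came from separate plantings, so p-values concern libraries only. The limma fit also draws each gene's variance toward that of the other listed genes, which the authors had already called. Its SE and p-values therefore do not rest on the spread of a gene's own 4 libraries alone. Values are FPKM, fragments per kilobase of transcript scaled to the size of the library. The comparison asks which transcripts depend on NDX, a homeodomain protein of plants known for holding back COOLAIR, the antisense transcript of FLC. The targeted gene measured 5.08 and 4.96 FPKM in wild type against 0.98 and 1.00 FPKM in the mutant, a difference for NDX of -1.60 ± 0.10 (SE) on the log2(FPKM + 1) scale (limma, adjusted p = 4.76e-06). Read depth per library is unknown. Of 9 leaf markers 2 were listed, beside 7.13% of all protein-coding genes. RBCS3B fell (mean 4719 to 4240 FPKM, difference -0.15, limma adjusted p = 0.00284), and RCA rose (mean 2870 to 3140 FPKM, difference 0.13, limma adjusted p = 0.00115).

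FLC clade proteins are MADS-box transcription factors that hold back flowering. FLC acts with its partner SVP at FT and SOC1, genes that promote the floral transition. FLC itself is switched on by FRIGIDA and transcription-linked chromatin factors, kept low by the autonomous pathway and silenced by Polycomb proteins during winter cold. Col-0 carries a non-functional FRIGIDA allele, and its FLC level is low without cold. MAF1 is known for its role in the response of flowering to temperature, and MAF2 to MAF5 form a tandem cluster.

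The 4 clustered genes lie side by side on the plus strand of chromosome 5 and span 20366 bp in TAIR10 coordinates, with gaps of 873 bp between MAF2 and MAF3, 780 bp between MAF3 and MAF4, and 1301 bp between MAF4 and MAF5. The listed members MAF4 (chr5:25992193-25996202) and MAF5 (chr5:25997504-26002619) are therefore the adjacent pair at the downstream end of the cluster. FLC (chr5:3173382-3179448, minus strand) lies on the same chromosome, 22802805 bp from the start of MAF2. MAF1 (chr1:28955483-28960234) is on another chromosome.

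Sequences are shown for the first intron because the transcriptional repressor VAL1, a known partner of NDX, belongs to a protein family that recognises the RY element. The RY hexamer was searched as CATGCA and TGCATG, the same motif on opposite strands, with overlapping matches counted. All 6 genes held an RY hexamer in intron 1 between 583 and 696 bases from the annotated gene start, counted to the first base of the hexamer and whether or not the gene was in the table. In the lines that follow, 20 bases flank the first such hexamer of each gene, read along the gene from RefSeq TAIR10.1 and with the hexamer in capitals. The FLC stretch is chr5:3178841-3178886 and those of MAF4 and MAF5 are chr5:25992777-25992822 and chr5:25998071-25998116.
FLC: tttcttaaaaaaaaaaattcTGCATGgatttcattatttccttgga
MAF1: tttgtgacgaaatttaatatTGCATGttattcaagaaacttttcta
MAF2: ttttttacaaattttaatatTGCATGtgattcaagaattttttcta
MAF3: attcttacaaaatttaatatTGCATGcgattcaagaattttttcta
MAF4: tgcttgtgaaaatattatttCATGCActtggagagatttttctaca
MAF5: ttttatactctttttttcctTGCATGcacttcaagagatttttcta

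In MAF1, MAF2, MAF3 and MAF5 the first hexamer has the same letters as in FLC, whereas MAF4 holds the form of the other strand. MAF5 holds both forms, as CATGCA at base 590 overlaps its first hexamer at base 588. Of 23067 protein-coding genes at least 1000 bases long, 5.79% held an RY hexamer that started from base 501 to base 700, a window set after the positions had been seen. Related genes share sequence by descent, so the 6 are not independent cases. FLC held a second hexamer 33 bases after the first, at bases 583 and 616 of the gene (chr5:3178808-3178886, minus strand). This pair is shown because no other member had 2 non-overlapping hexamers in this interval. Such a pair is not particular to FLC, as MAF5 held 1 at bases 1423 and 1455 of its intron 1 region, spaced about as closely.
FLC pair: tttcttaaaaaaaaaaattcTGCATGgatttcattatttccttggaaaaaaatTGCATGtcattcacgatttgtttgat

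A pair spaced this closely or more closely, overlaps included, occurred in the first 1000 bases of 2.61% of those genes. MAF5 held 9 overlapping or separate matches in its intron 1 of 2955 bp, against 2 in FLC (3493 bp), 2 in MAF1 (2470 bp) and 1 each in MAF2 (2081 bp), MAF3 (1959 bp) and MAF4 (403 bp). Intron 1 was taken from the transcript with the longest coding sequence, for MAF4 1 of 6 coding transcripts. Its length and count could differ in another transcript, and MAF4 held a second hexamer at base 2333, outside this intron. These are matches of letters and were not tested as binding sites.

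**Figure D1:**
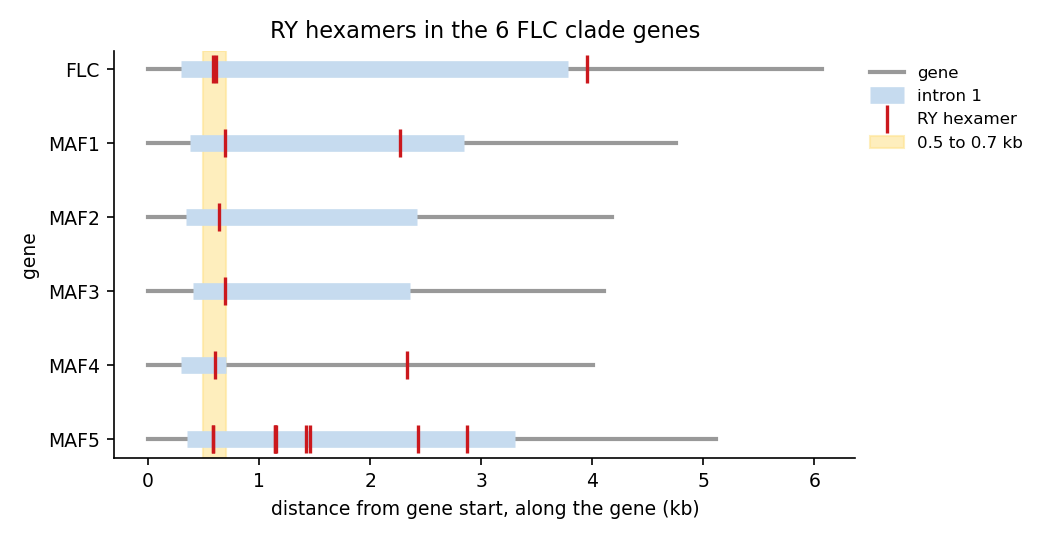
RY hexamers (red ticks) along the 6 FLC clade genes, with distance from the annotated gene start in kb on the x axis and a gene per row, intron 1 as a pale bar. Every gene has at least 1 tick, drawn where the hexamer starts, in the shaded interval from base 501 to base 700, and MAF5 carries the most, with 9 matches in intron 1.

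The 300 bases upstream of the gene start were compared next, and the run shown was picked out after the expression values were known. The upstream windows of MAF4 (chr5:25991893-25992192) and MAF5 (chr5:25997204-25997503) share an identical run of 20 bases, set in capitals below, which starts at position -143 in MAF4 and -112 in MAF5 counted from the gene start. Among 27443 upstream windows of protein-coding genes, searched on both strands, 2 held this run, those of MAF4 and MAF5 (0.00729%). Both hold it by construction, since the run was defined as the longest that they share. The share therefore does not measure how unusual such sharing is between related genes. The longest run that FLC shared with any MAF window was 10 bases. The FLC window (chr5:3179449-3179748, minus strand) is shown for contrast, with its only G-box, CACGTG, in capitals.
MAF4: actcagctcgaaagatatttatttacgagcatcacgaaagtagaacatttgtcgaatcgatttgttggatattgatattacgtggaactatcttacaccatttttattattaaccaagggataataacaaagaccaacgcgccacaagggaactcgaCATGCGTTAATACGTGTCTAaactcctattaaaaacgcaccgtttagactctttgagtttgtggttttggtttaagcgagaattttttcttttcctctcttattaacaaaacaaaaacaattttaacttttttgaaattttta
MAF5: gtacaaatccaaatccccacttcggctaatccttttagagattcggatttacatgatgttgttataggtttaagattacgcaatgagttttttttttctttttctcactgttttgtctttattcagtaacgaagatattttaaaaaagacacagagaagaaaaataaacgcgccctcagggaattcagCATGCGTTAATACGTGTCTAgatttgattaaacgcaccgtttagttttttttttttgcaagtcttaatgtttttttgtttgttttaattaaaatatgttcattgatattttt
FLC: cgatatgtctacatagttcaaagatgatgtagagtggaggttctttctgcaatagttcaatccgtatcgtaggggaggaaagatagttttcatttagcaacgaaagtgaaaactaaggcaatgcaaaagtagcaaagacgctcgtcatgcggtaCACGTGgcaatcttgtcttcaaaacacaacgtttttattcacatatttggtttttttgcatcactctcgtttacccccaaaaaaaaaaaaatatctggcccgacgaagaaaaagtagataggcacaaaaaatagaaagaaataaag

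A G-box was found in 7.09% of all upstream windows and in none of the 5 MAF windows. No RY hexamer was found in the upstream window of any of the 6 genes, where 10.3% of all windows held it, and no CArG box, the usual MADS-box site, where 2.92% held it. MAF2 and MAF3, which were not analysed here for expression, share a run of 20 bases with each other, and MAF1 shares 35 bases with MAF2. MAF1 also shares 20 bases with MAF3, and the listed MAF4 shares 18 bases with MAF2, so such runs are not confined to the listed pair.

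FLC measured 3.77 and 5.85 FPKM in wild-type seedlings, against 12.46 and 12.33 FPKM in the mutant. Both mutant libraries were above both wild-type libraries, and the closest pair across genotypes still differed by 2.11-fold. The means were 4.81 ± 1.47 FPKM and 12.4 ± 0.0919 FPKM (SD, n = 2 each), which differed by 1.23 ± 0.16 (SE) as log2(FPKM + 1) (limma, adjusted p = 0.000157). Without a variance trend in the fit, the SE of FLC was 0.18 (limma, adjusted p = 0.00354). The wild-type libraries of FLC lay 1.55-fold apart, whereas the median gap was 1.09-fold over 354 listed genes with Col-0 means from 1 to 10 FPKM, of which 2.82% had a gap at least as wide as that of FLC. FLC lost the threshold of 0.01 when *ndx1-4* replicate 1 (adjusted p = 0.0359, limma) or *ndx1-4* replicate 2 (adjusted p = 0.0354, limma) was left out, with differences of 1.22 and 1.236. The call remained, with differences of 0.97 once Col-0 replicate 1 was dropped and 1.49 once Col-0 replicate 2 was.

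The library kit does not mark strand, and an annotated antisense noncoding gene, AT5G01675 (chr5:3173371-3179600, plus strand), spans the whole of FLC. Of the 1269 distinct 50-base stretches in the spliced FLC transcripts, 50 bases being the read length, 55.8% also occur in the spliced antisense transcript read on the other strand. Antisense transcripts of FLC, known as COOLAIR, and sense FLC therefore cannot be told apart over these stretches. AT5G01675 itself was not among the listed genes, so its level is not known from these values. No annotated gene overlaps any of MAF1 to MAF5, on either strand.

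MAF4, a flowering repressor of the tandem cluster, measured 1.48 and 1.11 FPKM in wild type against 20.30 and 18.80 FPKM in the mutant. Each mutant library exceeded each wild-type library by at least 12.7-fold, where replicates differed by 1.33-fold in wild type and 1.08-fold in the mutant. On the log2(FPKM + 1) scale MAF4 differed by 3.17 ± 0.11 (SE) (limma, adjusted p = 1.67e-07), a scale that understates the change of genes this low in the wild type. With a pseudocount of 0.1 in place of 1 it was 3.83.

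MAF5, known to rise during vernalization where FLC falls, measured 2.53 and 2.03 FPKM in wild type against 31.38 and 32.03 FPKM in the mutant. Each mutant library exceeded each wild-type library by at least 12.4-fold, where replicates differed by 1.25-fold in wild type and 1.02-fold in the mutant. The difference was 3.32 ± 0.09 (SE) (limma, adjusted p = 6.93e-08). Ranked by difference over the 1984 genes, MAF5 was at place 17, MAF4 at place 20 and FLC at place 121.

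**Figure D2:**
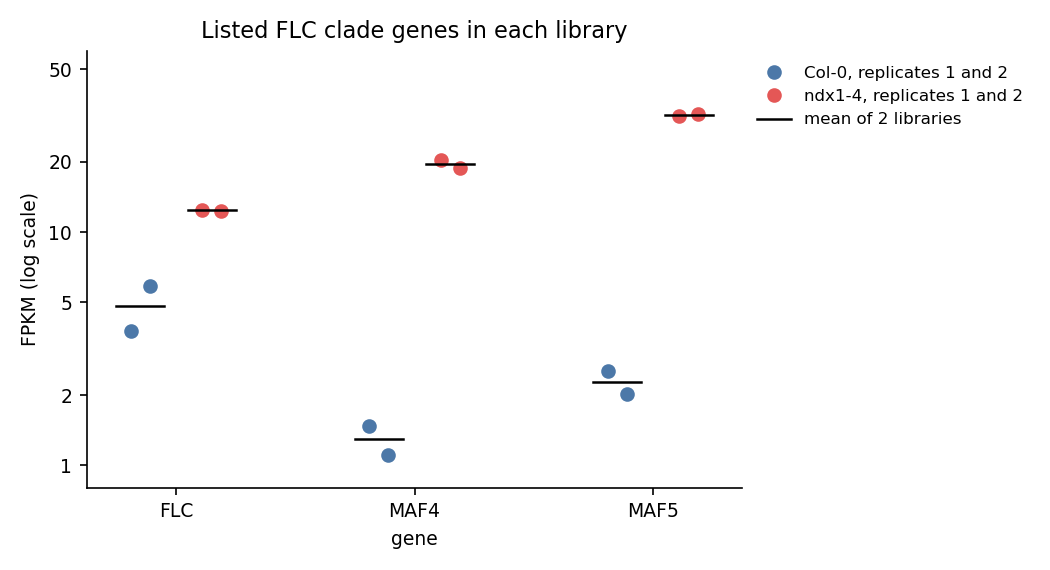
FPKM on a log axis for FLC, MAF4 and MAF5 in the 2 Col-0 and 2 *ndx1-4* libraries (points), with a line at each mean. The genotypes do not overlap for any of the 3 genes, and FLC has the widest gap between its Col-0 points (3.77 and 5.85).

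Since the table holds genes that the authors had already called on these libraries, the 3 calls among 3 members carry little weight on their own: 98.9% of all listed genes passed the same limma test. Libraries of the genotypes did not overlap in 99.9% of listed genes, and 43.5% of listed genes lay wholly higher in *ndx1-4*. The count of 1963 called genes dropped to 800 without Col-0 replicate 1, 815 without Col-0 replicate 2, 812 without *ndx1-4* replicate 1 and 773 without *ndx1-4* replicate 2. The size of the MAF4 and MAF5 changes was less common. Of 1954 genes with a Col-0 mean above 0, 3.12% were at least 8-fold higher in *ndx1-4*, and MAF4 and MAF5 were among these 61 genes. The median difference was 3.17 over the 3 members, against 0.53 over the listed genes that were higher and -0.20 over all listed genes.

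Because FPKM are scaled by length, levels can be compared between the genes, within a limit for FLC. Over 55.8% of its 50-base stretches sense and antisense reads cannot be told apart, which bears on its level here and on its ratios to MAF4 and MAF5. In Col-0 the order was FLC, MAF5, MAF4 in both libraries, and in *ndx1-4* it was MAF5, MAF4, FLC in both. In *ndx1-4* no library value of a gene overlapped with those of the next gene in this order. In Col-0 the lowest FLC value of 3.77 FPKM was still above the highest MAF5 value of 2.53 FPKM, and the lowest MAF5 value of 2.03 FPKM above the highest MAF4 value of 1.48 FPKM. The FPKM ratio of MAF5 to FLC was 0.67 and 0.35 in wild type, against 2.52 and 2.60 in the mutant. That of MAF4 to FLC was 0.39 and 0.19 in wild type, against 1.63 and 1.52 in the mutant. Both ratios were higher in each mutant library than in each wild-type library, by 2.09 and 1.94 on the log2(FPKM + 1) scale, with p = 0.333 in an exact permutation test (two-sided), the smallest value that 2 against 2 libraries allow.

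The FPKM ratio of the tandem neighbours MAF5 to MAF4 was 1.71 and 1.83 in wild type, against 1.55 and 1.704 in the mutant, so it was slightly lower in the mutant without a pseudocount. On the log2(FPKM + 1) scale the same ratio was higher in the mutant by 0.16 (exact permutation test, two-sided, p = 0.333), and no direction is given for it. Their coding sequences are 84.6% identical over 591 aligned bases, but no 50-base stretch of the spliced MAF4 or MAF5 transcripts occurs in any other annotated transcript, nor in each other. Reads that match without error therefore assign to MAF4 or MAF5 without ambiguity. FLC shares no 50-base stretch with any MAF transcript, and is 73.1% and 71.0% identical in coding sequence to MAF4 and MAF5. For comparison, MAF2 and MAF3 are 93.6% identical and share 13 such stretches.

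Added together, FLC, MAF4 and MAF5 reached 7.78 and 8.99 FPKM in wild type against 64.14 and 63.16 FPKM in the mutant, a 7.59-fold higher mean. FLC made up 48.5% and 65.1% of this sum in wild type against 19.4% and 19.5% in the mutant. MAF5 rose from 32.5% and 22.6% of the sum to 48.9% and 50.7%. In bulk seedlings, more cells that express these genes and more RNA per cell cannot be told apart.

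**Figure D3:**
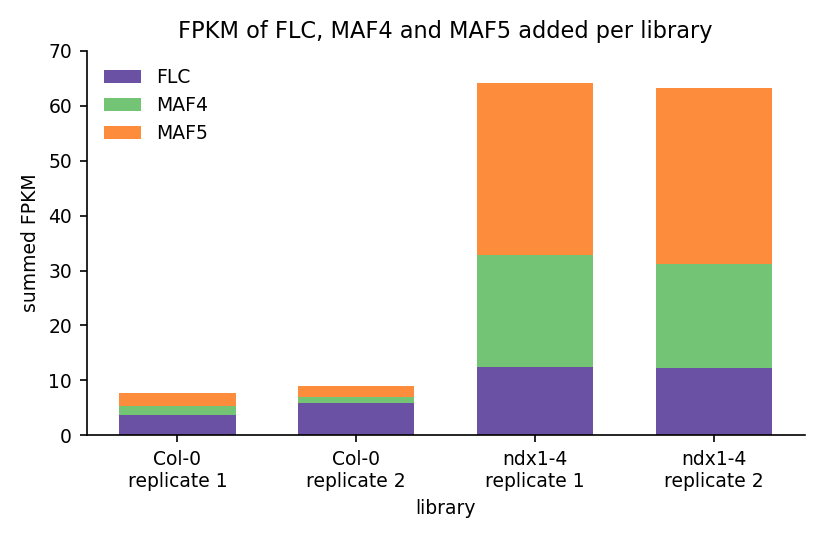
Summed FPKM of FLC, MAF4 and MAF5 (stacked bars, linear axis from 0) in each of the 4 libraries. The sum is 7.78 and 8.99 in wild type against 64.14 and 63.16 in the mutant, where MAF4 and MAF5 form the larger part of each bar.

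Markers of other organs moved with genotype in the same libraries. For comparison, 7.13% of all protein-coding genes were listed, and of all listed genes 55.9% were called lower in *ndx1-4* and 43.0% higher. All 8 seed markers were listed and all 8 fell in *ndx1-4*, their sum going from 1028 and 1072 FPKM in Col-0 to 59.4 and 51.3 FPKM. Of 6 floral organ genes, 4 were listed (AP3, PI, SEP1 and SEP3) and all 4 rose, their sum going from 2.15 and 2.43 FPKM to 62.0 and 61.1 FPKM, and none of the 4 was at 0 in any library. These floral genes are MADS-box genes as well. On the log2(FPKM + 1) scale their median difference of 3.52 was near those of MAF4 and MAF5, with a range from 1.62 (AP3) to 3.78 (SEP1). As ratios of mean FPKM all 4 rose by more than MAF4 (15.1-fold) and MAF5 (13.9-fold), from 18.8-fold for SEP3 to 66.6-fold for SEP1. The part of seed or floral tissue in the clade's values was not tested.

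Regulators of FLC were looked up next, in lists written from general knowledge. The base rate is that 7.13% of the 27444 protein-coding genes were listed and 7.05% were called. Of 26 activators of FLC (FRIGIDA and its complex, the PAF1 complex, the SWR1 complex, histone methyltransferases and demethylases), 0 were listed, and of 11 repressors in the autonomous pathway 0 were listed. Of 19 Polycomb and vernalization repressors, BMI1C (AT3G23060) alone was listed. A gene that is absent from these called genes was not analysed here, and its level is not known from these values.

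BMI1C, a RING-finger protein of Polycomb Repressive Complex 1, was at 0.03 FPKM in both wild-type libraries, against 0.86 and 0.84 FPKM in the mutant. Its difference of 0.84 ± 0.12 (SE) on the log2(FPKM + 1) scale (limma, adjusted p = 0.000273) became 2.87 with a pseudocount of 0.1, as both genotypes lay below the pseudocount of 1.

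A further list of 18 genes, not confined to targets of FLC, took in its partner SVP and other genes of the floral transition. Of these 18 genes, 6 were listed, with 2 higher and 4 lower in *ndx1-4*. Repressors among them fell. SVP, the MADS-box partner of FLC, measured 79.4 and 79.9 FPKM in wild type against 61.1 and 63.8 FPKM in the mutant, SVP differing by -0.35 ± 0.04 (SE) (limma, adjusted p = 6.1e-05). SMZ, an AP2-like repressor of FT, went from 9.08 and 8.26 FPKM to 4.82 and 4.85 FPKM. TEM1, another repressor of FT, went from 53.3 and 53.2 FPKM to 37.9 and 40.0 FPKM. Under median-ratio scaling the differences of SVP and TEM1 shrank to -0.16 and -0.25. SVP and TEM1 lost their calls when Col-0 replicate 1 or Col-0 replicate 2 was left out, and SMZ when *ndx1-4* replicate 1 or *ndx1-4* replicate 2 was left out.

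SPL3, a promoter of the floral transition, fell as well, from 26.9 and 26.3 FPKM to 16.61 FPKM in both mutant libraries (difference -0.65 ± 0.05, SE). AGL42, a MADS-box gene related to SOC1, rose from 4.32 and 3.22 FPKM to 9.15 and 9.22 FPKM (difference 1.104 ± 0.12, SE), and its call was lost when *ndx1-4* replicate 1 or *ndx1-4* replicate 2 was left out. GI, a clock-associated activator of the photoperiod pathway, rose from 6.73 and 6.57 FPKM to 8.44 and 9.02 FPKM (difference 0.35 ± 0.08, SE; limma, adjusted p = 0.00354), a call that was lost when p-values were adjusted over all 38095 annotated genes (adjusted p = 0.0681) or when any 1 of the 4 libraries was left out. FT and SOC1, the best-known targets of FLC, were not analysed here. Together 7 of the 74 genes on these lists were called, 3 higher and 4 lower, beside 7.05% of all protein-coding genes, and 4 of 74 without any 1 of the libraries (Col-0 replicate 1, Col-0 replicate 2, *ndx1-4* replicate 1 or *ndx1-4* replicate 2).

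**Figure D4:**
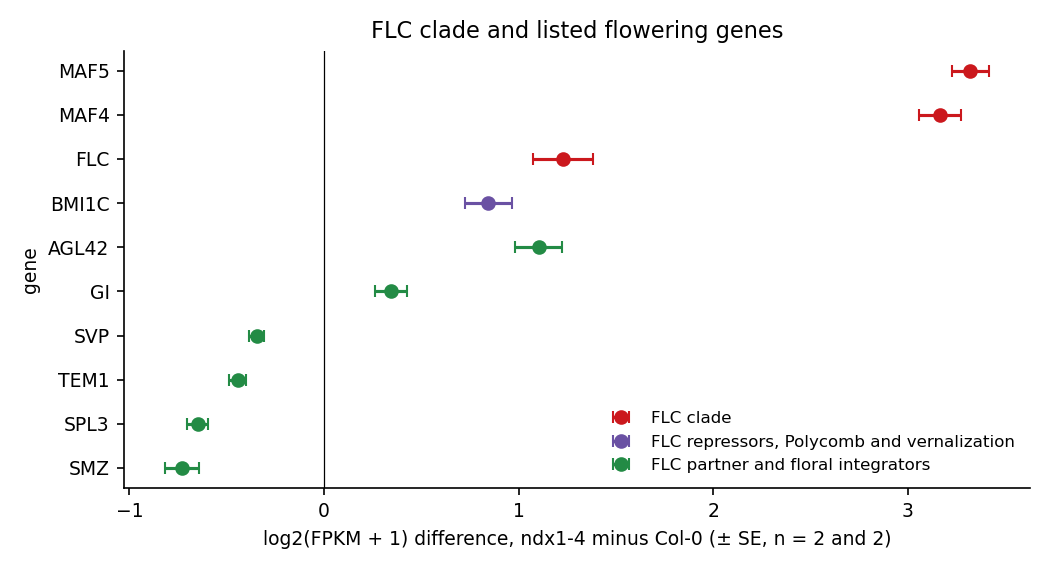
Differences between *ndx1-4* and Col-0 on the log2(FPKM + 1) scale (points, with the SE of the limma fit as bars, 2 libraries per genotype) for the FLC clade and the flowering genes in the table. MAF5 and MAF4 lie at 3.32 and 3.17, FLC at 1.23, and SVP, TEM1, SPL3 and SMZ lie below 0.

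The chromosomal surroundings were examined to see whether genes beside the clade members changed with them. Over chromosomes 1 to 5, 5.23% of annotated genes were listed, and the shares of listed neighbours given here were close to that. Within 100 kb of FLC lay 76 annotated genes, of which 4 were listed, 2 higher and 2 lower. The closest, AT5G10150, annotated as UPSTREAM OF FLC, lies 2.49 kb beyond the FLC start and fell from 34.7 and 34.2 FPKM to 24.8 and 26.6 FPKM, a difference of -0.41 ± 0.05 (SE) (limma, adjusted p = 0.000175). The sulphate transporter gene SULTR2;1 (13.57 kb) also fell, with a difference of -0.37, and MYB92 (53.12 kb, 0.66) and the ribosomal protein gene EMB3010 (78.96 kb, 0.15) were higher, but both lost their calls when p-values were adjusted over all annotated genes (limma, adjusted p = 0.0104 and 0.0168), and EMB3010 also without a variance trend. Further out, SCPL19 (182.23 kb), a serine carboxypeptidase-like gene, went from 2.14 and 1.08 FPKM to 0.19 and 0.15 FPKM, a 9.47-fold fall.

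Around the MAF2 to MAF5 cluster, 5 of 73 annotated genes within 100 kb were listed, 4 higher and 1 lower. Their differences ran from -0.19 for CESA6, a cellulose synthase subunit, to 0.36 for RGF9, a root growth peptide gene, and the largest change was 1.29-fold. The nearest were ASN2, an asparagine synthetase (9.68 kb, 1.25-fold higher), and AT5G65207 (49.58 kb, 1.27-fold higher), with ABCF5 (62.0 kb) 1.14-fold higher. CESA6 lost its call when p-values were adjusted over all annotated genes (limma, adjusted p = 0.0318) and without a variance trend (limma, adjusted p = 0.0133). A change of the size seen in MAF4 and MAF5 was found at no other listed gene within 200 kb of the cluster, where 7 genes were listed and the largest change was 1.29-fold.

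MAF1, the member outside chromosome 5, was not analysed, but 4 of the 67 annotated genes within 100 kb of it were listed, 1 higher and 3 lower. AT1G77060, annotated as a phosphoenolpyruvate carboxylase family protein, lies 1.90 kb upstream and was 1.31-fold higher. STP14, a sugar transporter gene at 48.67 kb, went from 29.6 and 30.1 FPKM to 15.9 and 15.0 FPKM, a difference of -0.91 ± 0.06 (SE), and ACR3 and GT2 differed by -0.25 and -0.32. Under median-ratio scaling, which raised the median difference over all listed genes from -0.20 to -0.01, CESA6 (-0.0038), ACR3 (-0.06) and GT2 (-0.13) lost their calls. The same scaling moved AT5G10150 to -0.22, SULTR2;1 to -0.19, EMB3010 to 0.34, ABCF5 to 0.38, ASN2 to 0.51, AT5G65207 to 0.53 and RGF9 to 0.55, each with its call kept. Of the 13 listed neighbours within 100 kb of the loci, SULTR2;1, ASN2 and STP14 kept their calls with each of the 4 libraries left out in turn, and the other 10 lost theirs without at least 1 library.

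**Figure D5:**
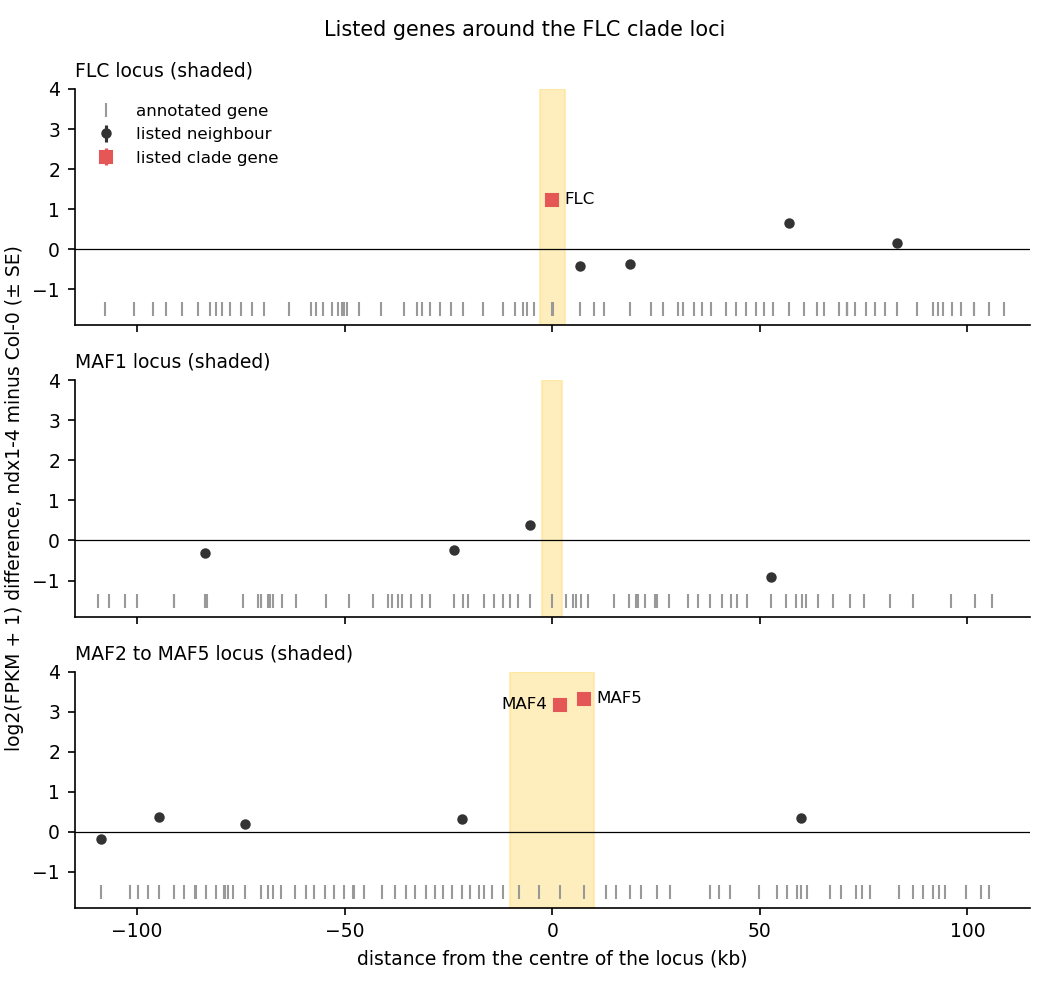
Log2(FPKM + 1) differences (± SE of the limma fit) of listed genes within 100 kb of FLC, MAF1 and the MAF2 to MAF5 cluster, by distance in kb from the centre of each locus, with grey ticks for annotated genes. MAF4 and MAF5 stand at 3.17 and 3.32 in the lowest panel, above neighbours of the cluster that lie between -0.19 and 0.36.

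The genes with values most like FLC over the 4 libraries were found by Euclidean distance between log2(FPKM + 1) values centred on each gene's mean, among 1912 other genes whose mean reached 1 FPKM. The nearest was AT5G20740, a pectin methylesterase inhibitor family gene, with 3.14 and 4.78 FPKM in wild type against 10.96 and 10.69 FPKM in the mutant (distance 0.055). It was followed by AT3G60940 (0.073), AT4G27250 (0.16), AT2G14520 (0.19) and FDM2, a gene named for its role in DNA methylation (0.19). This distance follows mainly the size of the difference, so it places genes that changed by as much as FLC first. With a pseudocount of 0.1, 2 of the 5 genes remained among the nearest 5.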

How the data were processed

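Messenger RNA of 10-day-old seedlings was sequenced as single-end reads of 50 bases, with 2 libraries for Col-0 and 2 for *ndx1-4*, grouped by sample title. The authors assigned reads to Araport11 genes with Salmon, correcting for GC bias. The authors chose the listed genes with DESeq2 and independent hypothesis weighting. Deposited FPKM of each library were used, rounded to 0.01 by the authors, with a comma as digit separator that was removed. The table holds called genes, so fits on it are a recheck on the same libraries, and its fold change and p-value columns and the table of transposable elements were not used. FPKM were tested with limma 3.58.1 in R 4.3.3 on log2(FPKM + 1), letting the prior variance follow the mean, over all 1984 genes and 4 libraries, with no covariates, Benjamini-Hochberg adjustment and a threshold of 0.01. The fit was also run on simulated data with a small part of the genes changed, whereas 98.9% of the listed genes were called. That run therefore does not measure the error of the calls given here. Ratios between members used an exact permutation test (SciPy 1.17.1).

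All 1984 genes had the same start and end in the RefSeq annotation of TAIR10.1, whose sequence and gene models were used. Coding sequences were aligned globally with Biopython 1.88, taking the transcript with the longest coding sequence. Named genes were the listed clade members, NDX, called members of the flowering lists, listed genes within 100 kb, and the 5 genes nearest to FLC in pattern. Members and lists were chosen with earlier results of these data known. Alternatives were a pseudocount of 0.1, a minimum mean of 1 FPKM, each library left out, a replicate block, no variance trend, median-ratio scaling, adjustment over 38095 annotated genes, a fold limit of 1.5, and windows of 50 and 200 kb. Without read depth, no counting interval or limit for low values can be given.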

Additional observations from a re-analysis of the deposited data

How the results depend on the processing

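FLC, MAF4, MAF5 and NDX kept their direction under every alternative run, and MAF4, MAF5 and NDX kept their call. FLC lost its call (limma) without *ndx1-4* replicate 1 (1.22) and without *ndx1-4* replicate 2 (1.236). Over the fits that left out a library, which take the remaining library to vary as the other genotype does, differences ran from 0.97 to 1.49 for FLC, from 3.05 to 3.28 for MAF4, from 3.21 to 3.43 for MAF5 and from -1.61 to -1.58 for NDX. The count of called genes ran from 773 to 815 in these fits, against 1963, and the count on the flowering lists was 4 in each, against 7. Fewer samples are part of that loss by construction. A fold limit of 1.5 left 818 genes by construction. The neighbours numbered 7 within 50 kb, against 13 within 100 kb. Of the 5 genes most like FLC, 2 remained with a pseudocount of 0.1, and the cause was not tested.

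Median-ratio scaling called 869 genes higher and 612 lower, 58.7% higher in place of 43.5%, because it centres a table of called genes. For the other named genes, 185 settings kept the call and 64 lost it, none with a change of sign. BMI1C has no value under the minimum of 1 FPKM, which removed it. Replicate deviations of the genotypes were close to uncorrelated (correlation 0.02 over 1984 genes). This does not tell whether libraries with the same replicate number were grown or processed together. With a replicate block 1958 genes were called and FLC differed by 1.23, MAF4 by 3.17 and MAF5 by 3.32, and no call of a named gene was lost. Without depth, the error of the low Col-0 levels of MAF4, MAF5 and BMI1C rests on 2 libraries.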
